A study of Mus musculus with 13 samples.

Results

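Thyroid signalling in mouse skin was followed here through 7 genes, the thyrotropin receptor Tshr, the thyroid hormone receptors Thra and Thrb, the deiodinases Dio2 and Dio3, the hormone-responsive gene Thrsp and the receptor partner Rxra. The 7 are among 19938 genes that the arrays measured with a probe of a single symbol. They were chosen by name for their place in the pathway, with their levels and their 24 h wave over the pools already known, and Tshr was known to be rhythmic. Each has 1 probe. Of the 7, 6 were among the 16322 genes kept for testing, and the probe of Dio3 lay below the filter on dim probes.

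The tissue was whole back skin from C57Bl6 males on postnatal day 30, with hair follicles in anagen, the phase in which hair grows. All mice were untreated, fed freely, and kept in 12 h of light and 12 h of dark, so a wave seen here is a daily one under that cycle. Sampling ran at steps of 4 h between ZT2 and ZT50 (ZT, hours since the lights came on), and 3 mice made up each of 13 pools, with 1 array per pool. There were 3 pools at 2 h after lights on and 2 pools at each of 6, 10, 14, 18 and 22 h. The spread between single mice is therefore not seen, and no group differs in genotype or treatment.

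Thyrotropin from the pituitary acts through Tshr, a receptor coupled to cyclic AMP that is best known in the thyroid gland. The gland releases mainly thyroxine, which Dio2 converts inside cells to the active hormone T3, while Dio3 inactivates both hormones. T3 binds the nuclear receptors made from Thra and Thrb, which sit on DNA as pairs with retinoid X receptors such as the product of Rxra, and switches target genes such as Thrsp. Skin is a classical target tissue of thyroid hormone, with effects on hair growth, epidermis and lipid synthesis.

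Values are probe intensities on a linear scale, as the authors deposited them. For the fits they were taken as log2(value + 16), with a cosine wave of 24 h period and a linear term for time over the 13 pools. Amplitude is the height of that wave in log2 units, and the fold is from fitted peak to fitted trough. Because the members were chosen with this wave in view, it is described and not tested. Over all genes, 23 of 16322 or 0.141% were called for the 24 h wave (limma, Benjamini-Hochberg adjusted p under 0.05). Of the 6 members kept, 1 is among them, Tshr, and nothing is read from that count. Levels are not compared between genes, since each comes from a different probe.

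Tshr had its highest levels at the end of the night and its lowest around dusk. On the first day its intensity was 750.1 at ZT2, 613 at ZT6, 392 at ZT10, 591 at ZT14, 739.7 at ZT18 and 982 at ZT22. On the second it was 708 at ZT26, 638 at ZT30, 587 at ZT34, 483 at ZT38, 707 at ZT42 and 911 at ZT46, and it was 801 at ZT50. Both pools taken 22 h after lights on stood above all other pools, and the lowest pool of the first day came 4 h earlier in the day than that of the second. The highest pool was 2.51 times the lowest. The fitted wave had an amplitude of 0.42 ± 0.06 log2 (SE, 13 pools), a fold of 1.80 and a peak at 22.7 ± 0.6 h (SE).

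Ordered by time of day, the mean of Tshr fell from 946 ± 49.5 (SD, n = 2) at 22 h to 753 ± 46.6 (n = 3) at 2 h, 723 ± 23.1 (n = 2) at 18 h, 625.3 ± 17.9 (n = 2) at 6 h, 537 ± 76.2 (n = 2) at 14 h and 489 ± 138 (n = 2) at 10 h. Of the 5 neighbouring pairs in this order, 3 did not overlap. The pools of 2 and 18 h overlapped, as did those of 14 and 10 h, so the order within those pairs is not resolved. The call of Tshr over all genes was kept in 4 of 13 fits that each leave out 1 pool, namely without ZT14, ZT26, ZT34 or ZT42. It was also lost without the filter on dim probes, with the cycle number in place of linear time, and with muscle and adipocyte marker means in the fit, where 1 gene in all was called. The amplitude in those 13 fits lay between 0.37 without ZT10 and 0.49 without ZT34.

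**Figure D1:**
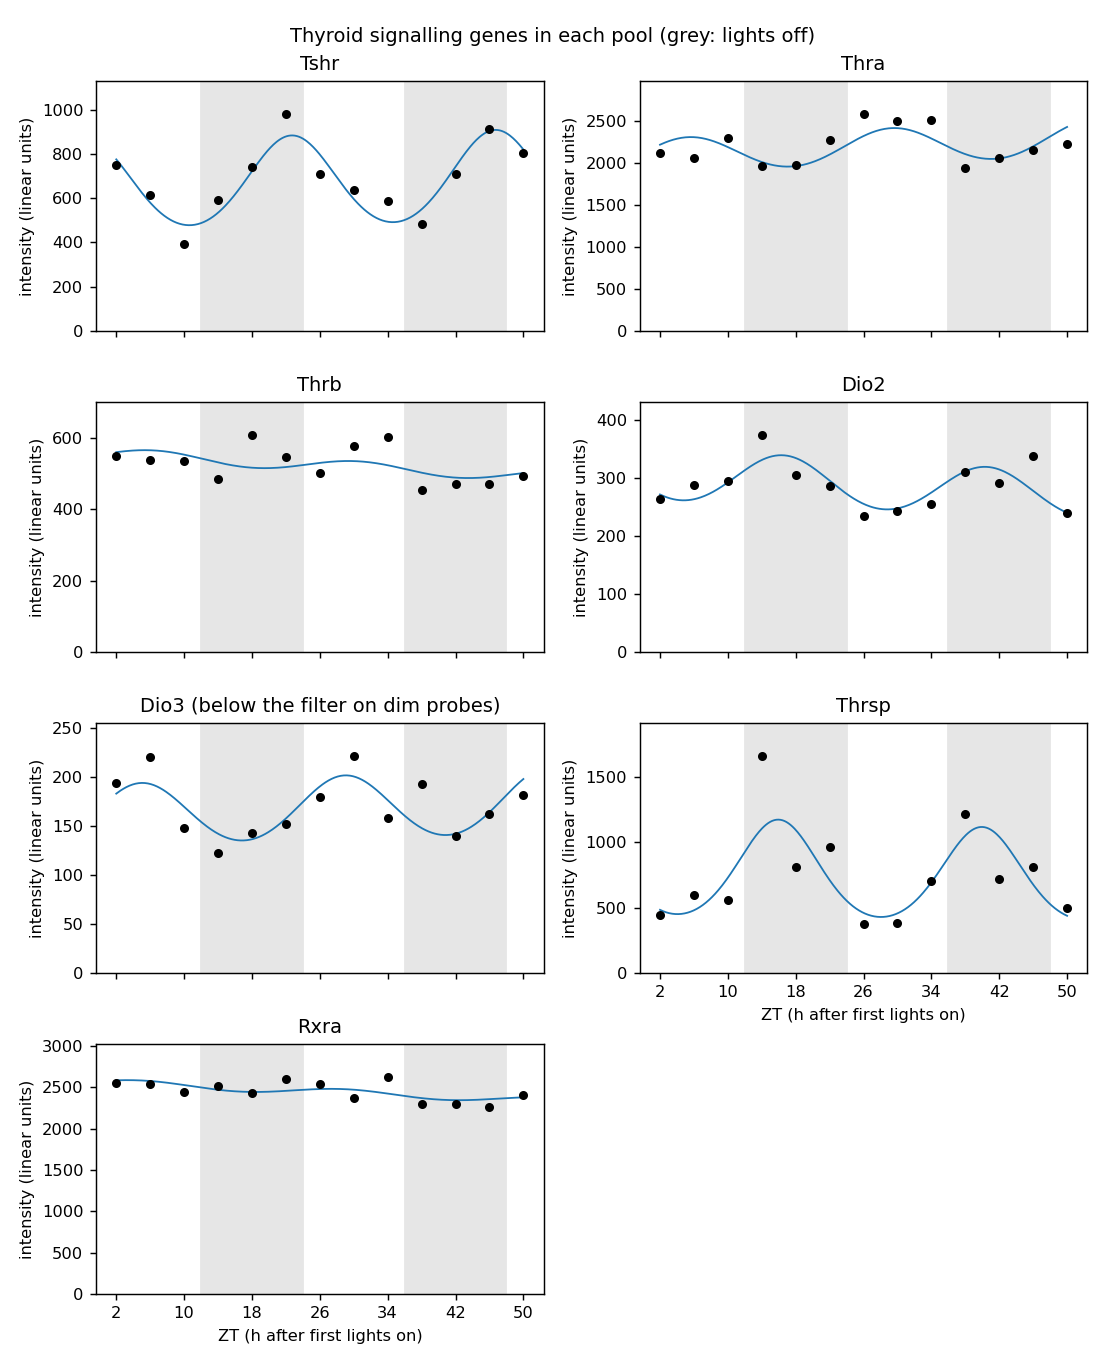
Intensity (linear units, axes from 0) of each member in each of the 13 pools (points) against ZT in hours, with the fitted 24 h wave and linear term (line) and the dark hours in grey. Tshr crests at ZT22 and ZT46, Thrsp at ZT14 and ZT38, and Rxra stays between 2264 and 2631.

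By the fixed rule, the gene whose profile was most like that of Tshr over the 13 pools was Arntl (Bmal1), the core clock activator. Pearson's r was 0.93 and Spearman's rho 0.92 (13 pools, log2 values, given as a description). That r was the highest among the genes kept, with predicted genes, clones, microRNAs, small nucleolar RNAs and receptors of smell passed over. Arntl was at 1078, 918, 739.7, 1037, 1127 and 1334 from ZT2 to ZT22, at 1221, 1008, 838, 854, 1035 and 1259 from ZT26 to ZT46, and at 1216 at ZT50. Both genes were highest in the ZT22 pool and lowest in the ZT10 pool. The fitted peak of Arntl, at 22.5 ± 0.5 h (SE), and that of Tshr lay within their errors of each other, while the amplitude of Arntl was 0.31 ± 0.05 log2 (SE). The next in likeness were Spon2, a matrix protein gene (r = 0.90, peak at 23.7 h), and Tmx1, a thioredoxin-related protein gene (r = 0.89, amplitude 0.10 log2).

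**Figure D2:**
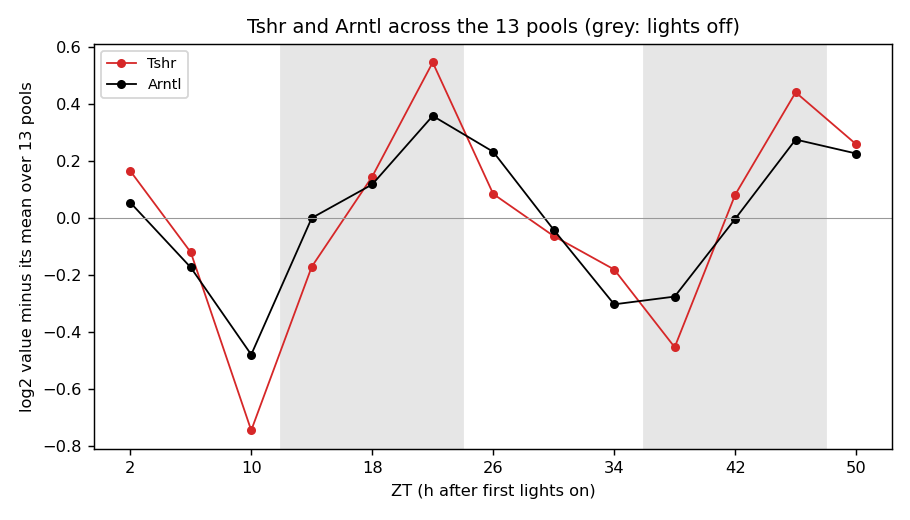
Log2 value of Tshr and of Arntl minus its own mean over the 13 pools (y axis) against ZT in hours, 1 point per pool, with the dark hours in grey. Both lines reach their top at ZT22 and their bottom at ZT10, and the swing of Tshr, 2.51-fold between its highest and lowest pools, is the wider.

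The nuclear receptors and their partner had the smallest fitted daily folds of the members. Thra, which encodes the receptor form found in most tissues, was at 2115, 2062, 2299, 1958, 1968 and 2268 from ZT2 to ZT22, at 2585, 2500.2, 2506, 1941, 2058 and 2152 from ZT26 to ZT46, and at 2227 at ZT50. It was lowest in the 2 pools of 14 h (1949 ± 11.9, SD, n = 2), and its 3 highest pools were those of the second light phase, ZT26 to ZT34. The fitted amplitude was 0.13 ± 0.05 log2 (SE, 13 pools), a fold of 1.20, with a peak at 5.3 ± 1.3 h (SE). Of the 5 neighbouring pairs of times of day, 3 overlapped.

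Thrb, which encodes the second thyroid hormone receptor, ranged from 455 at ZT38 to 609 at ZT18 with a median of 536. All 5 neighbouring pairs of times of day overlapped, from 570 ± 48.1 (SD, n = 2) at 10 h down to 470.3 ± 22.0 (n = 2) at 14 h. The pools of 18 h stood farthest apart, at 609 (ZT18) and 470.2 (ZT42). Its fitted amplitude was 0.04 ± 0.05 log2 (SE), smaller than its own error, so its fitted peak at 6.4 ± 4.2 h is not resolved. Without the ZT18 pool the amplitude was 0.11, and without ZT30 it was 0.02. Rxra ranged from 2264 at ZT46 to 2631 at ZT34, with a median of 2443 and a coefficient of variation of 4.94% over the pools. Its 5 neighbouring pairs of times of day all overlapped as well, and its fitted amplitude was 0.02 ± 0.03 log2 (SE), or 0.07 with muscle and adipocyte marker means in the fit.

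Both receptor genes lie beside strongly rhythmic clock genes. In RefSeq's gene table (GRCm38.p6, used for names and order), the span of Thra on chromosome 11 overlaps that of Nr1d1, a repressor of Arntl. Thrb on chromosome 14 and Nr1d2, the paralogue of Nr1d1, have no protein-coding gene between them. Nr1d1 had a fitted fold of 5.66 and a peak at 7.2 h, and Nr1d2 a fold of 3.36 and a peak at 9.0 h. Beside these, Thra had 1.20 and Thrb 1.06. Thra had its highest mean at 10 h (2402 ± 147, SD, n = 2) and its lowest at 14 h, and Nr1d1 was at 3973 ± 646 and 1446 ± 255 at those hours (SD, n = 2 each). Nr1d1 itself was highest at 6 h (4164 ± 780) and lowest at 18 h (826 ± 96.7, SD, n = 2 each). Thra was at 2281 and 2013 at those 2 times. At 22 h Nr1d1 was at 929 and Thra at 2210. The probes of Thra and Nr1d1 are separate, and the labels' protocol makes labelled DNA of sense orientation. The sources used here do not say which exons either probe covers, and whether the overlap contributes to the level of Thra was not tested.

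**Figure D3:**
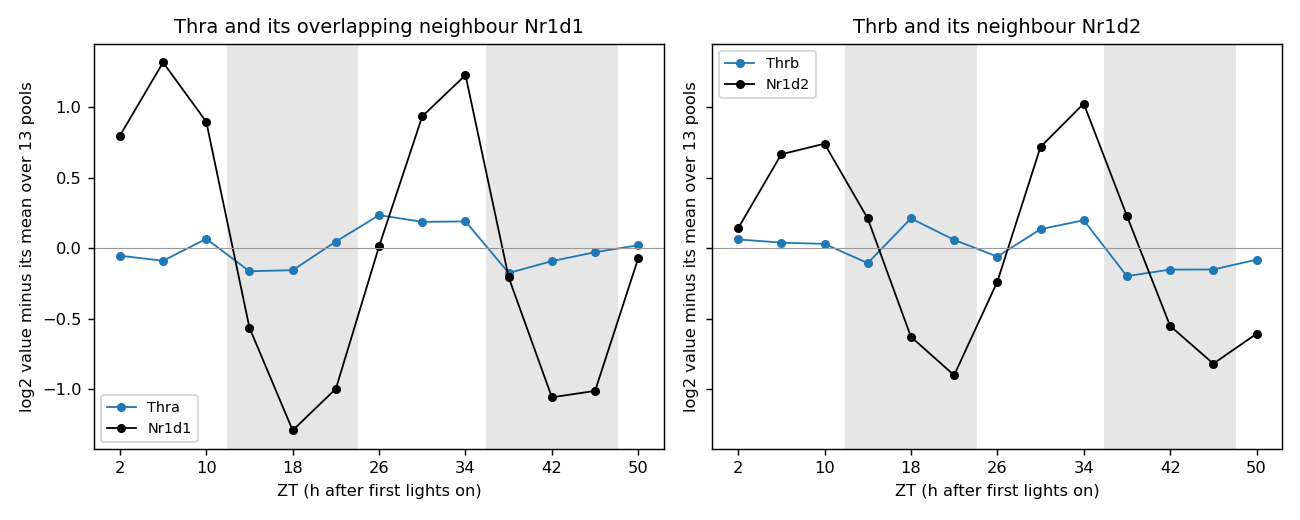
Log2 value minus its mean over the 13 pools (y axis) against ZT in hours for Thra with Nr1d1 (left) and Thrb with Nr1d2 (right), 1 point per pool, dark hours in grey. The clock genes swing by fitted folds of 5.66 and 3.36, while the receptor genes stay near 0.

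The 2 deiodinases had their highest pools at opposite times, Dio2 in the dark and Dio3 in the light. Dio2, the activating enzyme, was at 264, 287, 294, 375, 304 and 287 from ZT2 to ZT22, at 234, 243, 254, 309.7, 292 and 337 from ZT26 to ZT46, and at 239 at ZT50. Its 3 pools of 2 h lay between 234 and 264 and its 6 dark pools between 287 and 375, with no overlap. Other light pools did overlap the dark ones, with ZT6 (287) and ZT10 (294) within the dark range. Dio2 had a fitted amplitude of 0.20 ± 0.05 log2 (SE, 13 pools), a fold of 1.32 and a peak at 16.5 ± 1.0 h (SE). By time of day its mean went from 342 ± 46.0 (SD, n = 2) at 14 h to 246 ± 16.2 (n = 3) at 2 h, and all 5 neighbouring pairs in between overlapped. With quantile normalization the amplitude of Dio2 was 0.15. Its probe is dim as well, at most 375 where the array medians lay between 440 and 483.

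Dio3, the inactivating enzyme, was at 194, 220.4, 148, 122, 143 and 153 from ZT2 to ZT22, at 179, 222, 158, 193, 140.3 and 163 from ZT26 to ZT46, and at 182 at ZT50. Both pools of 6 h, at 221 ± 1.26 (SD, n = 2), stood above every other pool, and the 3 pools of 2 h were at 185 ± 7.59 (n = 3). The pools of 14 h disagreed most, at 122 (ZT14) and 193 (ZT38). In the fit without the filter its amplitude was 0.25 ± 0.07 log2 (SE), a fold of 1.41, with a peak at 4.9 ± 1.0 h (SE). Its probe is dim, with a mean log2 value of 7.53 against the filter's limit of 7.61, so part of its intensity may be background, which was not tested.

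Set against each other within each array on the log2(value + 16) scale, Dio2 minus Dio3 (centred on its mean over the pools) was lowest in the early day. It was -0.32 ± 0.03 (SD, n = 3) at 2 h, -0.46 ± 0.17 (n = 2) at 6 h and 0.08 ± 0.20 (n = 2) at 10 h. In the dark it was 0.37 ± 0.61 (n = 2) at 14 h, 0.29 ± 0.02 (n = 2) at 18 h and 0.21 ± 0.10 (n = 2) at 22 h. The 5 pools of 2 and 6 h lay at or under -0.28, below the other 8. The 14 h value rests on pools of 0.80 at ZT14 and -0.06 at ZT38. These are the levels the members were selected on, so the difference is a description. The dim probes of Dio3 and Dio2 enter every value.

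**Figure D4:**
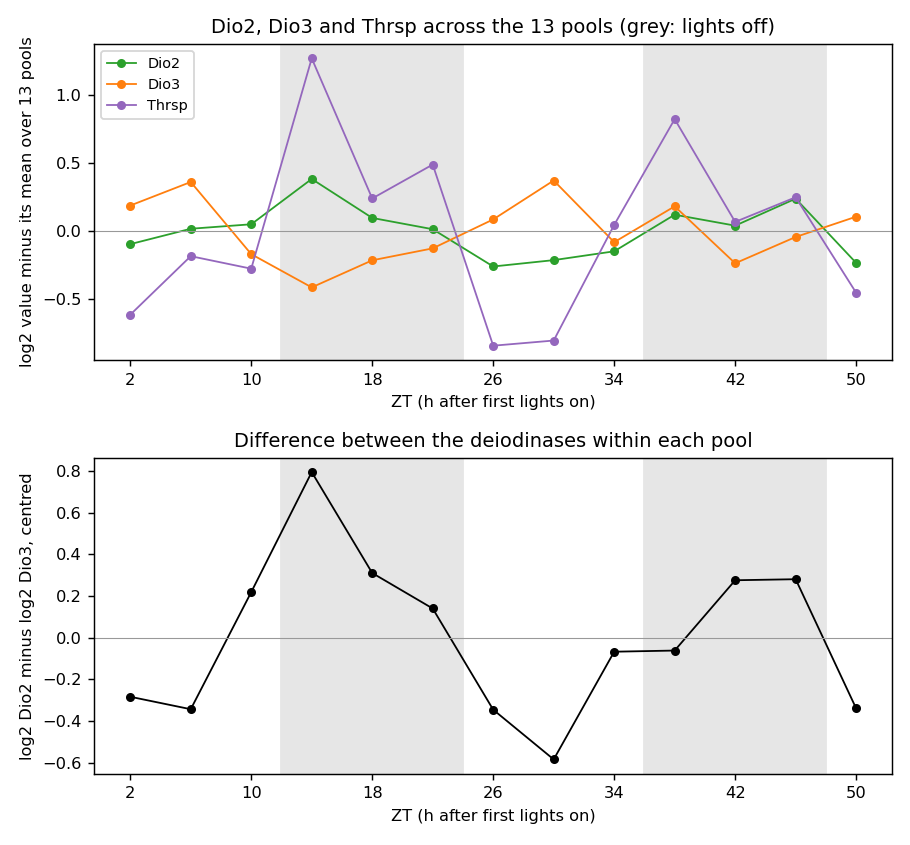
Top, log2 value of Dio2, Dio3 and Thrsp minus the mean over the 13 pools; bottom, log2 Dio2 minus log2 Dio3 within each pool, centred on its mean; both against ZT in hours with the dark hours in grey. The lower line is at or under -0.28 in the 5 pools of 2 and 6 h and at 0.80 in the ZT14 pool.

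Thrsp, which encodes a nuclear protein of fat-forming tissues and is switched on by thyroid hormone and by feeding, had the widest swing of the members. It was at 440.0, 598, 560.4, 1665, 808 and 963 from ZT2 to ZT22, at 374, 384, 704, 1218, 715 and 813 from ZT26 to ZT46, and at 494 at ZT50. Both pools of 14 h stood above every other pool, and the 6 dark pools, from 715 to 1665, all stood above the 7 light ones, from 374 to 704. The fitted amplitude was 0.69 ± 0.13 log2 (SE, 13 pools), a fold of 2.62, with a peak at 16 h and an SE of 0.8 h. The residual SD around the fit was 0.41 log2, against a median of 0.11 over all genes. The mean level was 1441 ± 316 (SD, n = 2) at 14 h, 762 ± 65.5 (n = 2) at 18 h and 888 ± 106 (n = 2) at 22 h, and the pools of 18 and 22 h did not overlap. Without the ZT14 pool the amplitude was 0.57.

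Thrsp and Dio2 had their highest and lowest values in the same pools, ZT14 and ZT26. The summed adipocyte markers did so too, though the mean of their log2 values was highest at ZT34 (11.94, against 11.92 at ZT14). At ZT34 the sum was 44413, with Dio2 at 254 and Thrsp at 704. Of 10 fixed adipocyte markers 9 were kept, and their summed intensity went from 37757 at ZT26 to 44949 at ZT14, a 1.19-fold range. By time of day that sum was 43644 at 14 h (42339 to 44949) and 38355 at 2 h (37757 to 38728), and 0 of the 9 markers were called for the 24 h wave. The 6 of 7 sebaceous gland markers kept summed to between 13955 at ZT50 and 17885 at ZT14, and the sums of epidermal and immune markers were also highest at ZT14. Hair follicle markers had their lowest sum at ZT14, 104278, and their highest at ZT2. The sums of fibroblast, endothelial and muscle markers were highest at ZT26, ZT34 and ZT42. Those of thyroid follicle, hepatocyte and melanocyte markers were highest at ZT38, ZT46 and ZT50. Of 6 brown adipocyte markers 3 were kept, with Ucp1 below the filter, and their sum was highest at ZT30. When muscle and adipocyte marker means entered the fit, the amplitude of Thrsp was 0.52 ± 0.11 and that of Dio2 0.16 ± 0.06 log2 (SE), while that of Tshr was 0.51 ± 0.10. The part of fat or gland cells in these waves was otherwise not tested, and in whole skin fewer cells of a type and less RNA per cell cannot be told apart.

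The promoters of Dio2, Thrsp and Dio3 are printed because the fitted peaks of the first pair lay close together and that of Dio3 at the opposite time of day. Neither Dio2 nor Thrsp is among the genes called for the 24 h wave, and Dio3, below the filter, could not be called. The table (GRCm38.p6) holds promoters of 5 of the 7 members and none for Tshr or Thra. Each run is 300 bases, from 250 before the annotated start to 50 after it, 5′ to 3′ on the gene's strand, with the first transcribed base and any motif match in capitals. Dio2 lies at chr12:90738989-90739288 (minus strand), Dio3 at chr12:110278980-110279279 (plus strand) and Thrsp at chr7:97417501-97417800 (minus strand).
Dio2: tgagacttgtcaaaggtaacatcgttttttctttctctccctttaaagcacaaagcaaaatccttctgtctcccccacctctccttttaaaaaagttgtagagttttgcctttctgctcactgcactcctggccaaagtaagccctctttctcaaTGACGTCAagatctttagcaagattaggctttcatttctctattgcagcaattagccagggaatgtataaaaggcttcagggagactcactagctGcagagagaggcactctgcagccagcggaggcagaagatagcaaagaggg
Dio3: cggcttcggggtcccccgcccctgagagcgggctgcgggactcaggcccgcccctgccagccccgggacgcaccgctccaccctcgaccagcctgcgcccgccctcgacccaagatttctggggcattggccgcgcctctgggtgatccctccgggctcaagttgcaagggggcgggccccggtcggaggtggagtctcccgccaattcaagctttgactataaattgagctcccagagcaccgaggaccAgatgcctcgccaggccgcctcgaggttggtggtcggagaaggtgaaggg
Thrsp: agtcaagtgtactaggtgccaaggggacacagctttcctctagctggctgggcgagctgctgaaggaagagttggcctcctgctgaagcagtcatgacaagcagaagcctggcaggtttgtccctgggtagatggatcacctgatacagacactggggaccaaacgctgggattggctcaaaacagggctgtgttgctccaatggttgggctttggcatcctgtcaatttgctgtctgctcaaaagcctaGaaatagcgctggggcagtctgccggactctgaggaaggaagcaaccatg

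The letters searched, on both strands, were the E-box CACGTG, the D-box TTATGTAA or TTACGTAA, the nuclear receptor half-site AGGTCA, that half-site with a preceding T (TAGGTCA, which overlaps it), a direct repeat of the half-site with 4 bases between, and the cyclic AMP element TGACGTCA. Dio2 held the cyclic AMP element, starting 95 bases before the annotated start, and 1.79% of the 32851 promoters of this length in the table hold it. Dio3 and Thrsp held none of these letters in this window. Of the other members, 1 of the 2 promoters of Thrb held the half-site and the other an E-box, and 1 of the 2 promoters of Rxra held the half-site on both strands. The half-site occurs in 16.3% of all promoters and the E-box in 7.15%. A match is a run of letters and not a shown binding site.

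**Figure D5:**
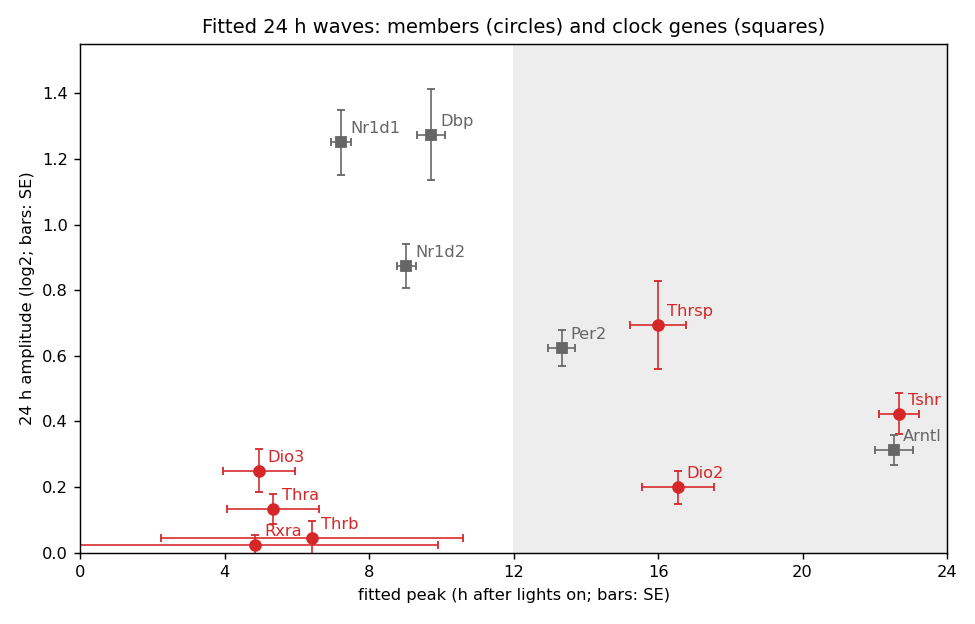
Fitted 24 h amplitude (log2, y axis) against fitted peak in hours after lights on (x axis), with SE bars, for the 7 members (circles) and 5 clock genes (squares), dark hours in grey; Dio3 comes from the fit without the filter. Tshr lies beside Arntl at 22.7 and 22.5 h, Thrsp and Dio2 at 16 and 16.5 h, and Dio3 and Thra near 5 h, while the peaks of Thrb and Rxra have errors of 4.2 and 5.1 h.

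Genes most like the other members over the 13 pools, by the same measure and likewise a description, were as follows. For Thrsp the closest was Aldh1a7, an aldehyde dehydrogenase gene (r = 0.93), then Kctd12 (0.91) and Syt12 (0.91). Aldh1a7 was also second for Dio2 (r = 0.89) after Tbxa2r, the thromboxane receptor (0.90), and before Clstn3 (0.89). Its own fitted peak was at 16 h with a fold of 1.41, and it was highest in the ZT14 pool at 427. For Thra they were Sp4, a transcription factor gene (0.93), Pld4 (0.91) and Bin3 (0.91), with fitted peaks from 5.0 to 5.5 h. For Thrb they were Tbc1d8 (0.94), Ddx51 (0.93) and Usp12 (0.93), and for Rxra Ncdn (0.92), Elk4 (0.89) and Pias3 (0.88).

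Measures that did not choose the members were tested over all genes. For a linear change across the 48 h, 0 of the 6 members kept passed, where 0 of 16322 genes or 0% were called (limma, Benjamini-Hochberg) and 1437 had an unadjusted p under 0.05. None of the 6 had an unadjusted p under 0.05 either. The slopes per 24 h were 0.04 ± 0.07 log2 (SE) for Tshr, 0.07 ± 0.05 for Thra, -0.08 ± 0.06 for Thrb, -0.08 ± 0.06 for Dio2, -0.07 ± 0.16 for Thrsp and -0.06 ± 0.04 for Rxra. Their adjusted p-values in limma lay between 0.658 (Rxra) and 0.923 (Thrsp). Compared hour by hour, Rxra, Dio2 and Thrsp were each lower on the second day in 5 of 6 pairs of pools, and Thra was higher in 4 of 6.

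A 12 h wave beside the 24 h one was called in 0 of the 6 members, with 0% of all genes called (limma) and 290 genes at an unadjusted p under 0.05, none of them a member. The largest 12 h amplitude was that of Thrsp, 0.22 log2, and the median was 0.07 over the 6 members and 0.05 over all genes.

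Whether the wave differed between the first and second day was tested over the 12 pools from ZT2 to ZT46, leaving out ZT50. None of the 6 members was called in limma, where 478 genes or 2.93% were. That count over all genes is unstable. It was 0 with quantile normalization, with each array centred on its median or with no filter, 5 with the 50th percentile filter and 2126 with muscle and adipocyte marker means in the fit. Leaving out 1 pool, it was 0 without ZT2, ZT10, ZT14, ZT18, ZT22, ZT26, ZT30 or ZT34, 1 without ZT46, 531 without ZT6, 646 without ZT38 and 1582 without ZT42. At an unadjusted p under 0.05 there was 1 member of 6, Thrb, beside 4349 genes or 26.6% of all. Thrb (adjusted p = 0.165, limma) was fitted with an amplitude of 0.07 log2 and a peak at 21.9 h on day 1, and 0.19 and 7.3 h on day 2. Tshr had 0.53 and a peak at 22.1 h on day 1, and 0.34 and 23.3 h on day 2 (adjusted p = 0.382, limma). Thrsp had 0.67 at 16.1 h and 0.73 at 15.7 h (adjusted p = 0.960, limma), and Dio2 0.18 at 14.3 h and 0.21 at 18.0 h (0.351). The fitted amplitude of Thra was 0.05 on day 1 (peak at 3.9 h) and 0.21 on day 2 (peak at 5.0 h, adjusted p = 0.372, limma). A p above the threshold does not show that the days were alike.

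The wider thyroid pathway was taken from a list of 88 other genes by role, of which 74 were kept. For the 24 h wave 0 of the 74 were called (limma), with 7 or 9.46% at an unadjusted p under 0.05, close to the 9.54% of all genes. The median amplitude was 0.06 log2, as over all genes. Among 6 of 8 genes of ligands and their release, Cga, the shared alpha chain of thyrotropin, had the largest fitted amplitude (0.15 log2, or 0.09 with quantile normalization). Among 10 of 12 genes of hormone synthesis the largest was that of Nkx2-1, a transcription factor of the gland (0.17, adjusted p = 0.501), and among 8 of 11 transport and binding genes that of Ttr, the thyroxine carrier transthyretin (0.42 ± 0.30, SE, adjusted p = 0.778). Ttr was at 2436 in the ZT46 pool and at most 646 elsewhere, and without that pool its amplitude was 0.17. The summed intensity of 10 hepatocyte markers was likewise highest in ZT46, at 31837, and at most 10135 in the other 12 pools. For the members, the amplitudes without ZT46 of Tshr (0.42), Dio2 (0.20) and Thrsp (0.70) were close to those with it.

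Further along the pathway, Sult1a1, a sulfotransferase that conjugates small phenols, had the largest amplitude among 7 of 8 genes of deiodination and hormone turnover (0.24 ± 0.05, peak at 14.1 h, limma adjusted p = 0.213). Receptor partners Rxrb and Rxrg had 0.04 and 0.07, and that of Rxrg was 0.01 without ZT18, 0.03 without ZT30, 0.11 without ZT42 and 0.18 with muscle and adipocyte marker means in the fit. Among 12 of 14 coregulators the largest was Kat2b, a histone acetyltransferase (0.11, or 0.17 without ZT18 and 0.06 without ZT30). In the signalling branch below Tshr, 13 of 15 genes were kept and Arrb2, a beta-arrestin that desensitises such receptors, had the largest amplitude (0.13, peak at 7.0 h), which was 0.07 without ZT18 and 0.20 without ZT30. Among 16 of 18 thyroid hormone targets it was Atp2a1, the calcium pump of fast muscle (0.25 ± 0.09, peak at 9.8 h, adjusted p = 0.534), in pools where the 10 muscle markers summed to between 31846 at ZT2 and 64269 at ZT42. With muscle and adipocyte marker means in the fit the amplitude of Atp2a1 was 0.07. Klf9, a target of thyroid hormone and of glucocorticoids, had 0.23 and a peak at 9.5 h (adjusted p = 0.418), and without the ZT38 pool it was called (adjusted p = 0.0420, limma). Hr (hairless), a corepressor in skin, had 0.06. Klf9 and Hr were named after their values were seen.

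The pathway genes were not called for linear change or for a 12 h wave (0 of 74 each in limma). At an unadjusted p under 0.05 there were 4 or 5.41% for linear change, beside 8.8% of all genes. For the 12 h wave there were also 4 or 5.41%, beside 1.78% of all genes. Between the days 2 of 74 or 2.70% were called, beside the unstable 2.93% of all genes, and 16 or 21.6% had an unadjusted p under 0.05, beside 26.6% of all genes. The 2 are Pax8, a transcription factor of thyroid cells (adjusted p = 0.0439), and Tg, thyroglobulin (0.0482). The fitted peak of Pax8 was at 12.2 h (day 1) and 20.4 h (day 2), and that of Tg at 12.1 and 18.8 h. Pax8 was called in 3 and Tg in 2 of the 12 fits that leave out 1 pool, and neither with quantile normalization or median centring. Their intensities, from 212 to 375 for Pax8 and 171 to 257 for Tg, were all dim.

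The tissue label was checked against fixed markers. Of 10 each, 9 epidermal, 9 hair follicle and 9 fibroblast markers were kept, and their summed intensities ran from 63840 to 74620, from 104278 to 114717 and from 52608 to 64742 over the pools. Array medians lay between 440.0 and 483, and pools correlated at 0.978 to 0.996 over the genes kept. Muscle markers varied by 2.02 times. Of 6 thyroid follicle markers, all of them also on the pathway list, 5 were kept, summing to between 3791 at ZT30 and 4761 at ZT38. The brightest of the 5, Foxe1, was at 2047 to 2671 over the pools. Nkx2-1, at 597 to 992, and Slc5a5, at 565 to 777, lay above the array medians. Tg, at 171 to 257, and Pax8, at 212 to 375, were dim, so the sum says little about them. At ZT30 and ZT38 Tshr, which marks thyroid follicle cells elsewhere, was at 638 and 483. The mean of the 5 markers' log2 values was instead highest at ZT46 (9.45, against 9.42 at ZT38). In that pool their sum was 4701 and Tshr was at 911. Whether thyroid cells contributed to any value was not tested.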

How the data were processed

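RNA of the skin pools was labelled with biotin and hybridised to Affymetrix arrays, 1 per pool, per the labels' protocols. The values the authors deposited are intensity, and their range is that of a linear scale. The submitters' processing notes name Affymetrix Expression Console 1.1.1 and PLIER 2.0 with no role. Scaling between arrays and the genome build are not given in the sources used here. Precision is limited by how many arrays there are.

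There are 35557 probes, of which the platform annotation gives 21789 a single symbol, 1621 several and 12147 none. All 7 members matched RefSeq's mouse gene table (GRCm38.p6) by gene ID and symbol. Intensities were converted to log2(value + 16), so folds understate change in dim genes. A gene was kept through its brightest single-symbol probe if that probe's mean reached the 25th percentile (7.61 log2). Fits used limma 3.58.1 (R 4.3.3) over all 16322 genes with Benjamini-Hochberg adjustment. The 24 h fit has cosine, sine and linear time; the 12 h terms were added to it; days were compared by the interaction of day with the wave. Pools come from different mice, and p-values reflect how much pools differ.

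The members and lists were chosen with earlier results of these data known. Named genes were the members, their 3 closest genes by correlation (predicted genes, clones, microRNAs and receptors of smell passed over), pathway genes called or with the largest amplitude in their role, and fixed neighbours and clock genes. Scripts were tested on simulated data. Figures used matplotlib 3.10.9 in Python 3.11.15.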

Additional observations from a re-analysis of the deposited data

Results flagged for a closer look

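For 2 pathway genes the fitted 24 h wave differed between the first and the second day in limma over all genes, Pax8 (adjusted p = 0.0439) and Tg (adjusted p = 0.0482). The fitted peaks of both came later on day 2. Of 14 groups of values, the 7 light and the 6 dark pools of each member, 0 had a pool set apart from the rest by Dixon's gap at the 95% level. Chance gives about 1 in 20 only for repeats of 1 level. Each group mixes times of day, so a daily wave widens its range and that rate need not hold. The count therefore cannot show that no pool deviated.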

How the results depend on the processing

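Alternatives were 2 scalings, pseudocounts of 1 and 64, 2 filters, all probes, muscle and adipocyte covariates, an intensity trend with robust prior, and leaving out each pool, and for the 24 h wave also no linear time and cycle number (ZT50 then has a level of its own), and for the pathway genes time of day as a factor. The median amplitude of the 6 members kept, 0.17, lay between 0.14 and 0.19. Linear change, the 12 h wave and the comparison of days called 0 members in every one of these that was run. The 24 h wave called 0 other pathway genes, and 0 to 1 when a pool was left out. Between days the 2 pathway calls became 0 with quantile normalization, median centring, no filter or the 50th percentile filter, 1 with a pseudocount of 64, all probes or the trend, 5 with the covariates, and 0 to 6 leaving out a pool. No slope was called. That of Tshr changed sign without ZT34, with a range of -0.0069 to 0.0675 leaving out a pool. That of Thrsp changed sign with the covariates (0.0084) and without ZT14, with a range of -0.15 to 0.0218. The causes were not tested. Dio2 could not be fitted with the 50th percentile filter, which removes it, and Dio3 was fitted only without the filter.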
